A study of Mus musculus with 12 samples.

Results

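The aminoacyl-tRNA synthetases comprised 37 of the 12441 genes measured in mouse bone marrow-derived macrophages. They were chosen by name: protein-coding genes whose symbol was a single amino acid letter followed by ars, with or without a closing 2, together with Eprs, Farsa and Farsb. Of these, 20 carried no closing 2 and are called cytosolic, and 17 ended in 2 and are called mitochondrial. Gars and Kars, counted among the cytosolic genes, each encode both a cytosolic and a mitochondrial form of their enzyme. All 37 passed the filter on low values in every comparison, and no member was at 0 in any library.

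Aminoacyl-tRNA synthetases join each amino acid to its transfer RNA, the step that fixes the genetic code during translation. Most amino acids have one enzyme for the cytosol and another, encoded by a separate nuclear gene, for the mitochondrial matrix, where it serves translation of the respiratory chain subunits encoded by mitochondrial DNA. Several cytosolic enzymes sit in a multisynthetase complex, and many cytosolic synthetase genes are known targets of ATF4, the transcription factor of the amino acid response, while tryptophanyl-tRNA synthetase is induced by interferon gamma in human cells.

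The 12 libraries formed 4 groups of 3. They were D316Y macrophages after 24 h with 100 ng/mL LPS, WT macrophages after the same treatment, unstimulated D316Y macrophages and unstimulated wild-type (WT) macrophages. D316Y is a homozygous change in COQ6, a mitochondrial enzyme of coenzyme Q synthesis, and LPS is lipopolysaccharide, a component of the bacterial outer membrane that activates macrophages. All groups shared the same culture, 6 days of bone marrow cells in 10% L929-conditioned medium. The labels do not tell whether the replicates are different animals or cultures, so the tests see only how these libraries vary, and that variation may be technical.

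The libraries held between 32.8 and 47.2 M reads in the table. All 8 of 8 macrophage markers were measured. Their summed level was 54936 to 63788 counts-per-million (CPM) in D316Y and 64664 to 70806 CPM in WT macrophages with LPS. Without it the sum was 32532 to 35483 CPM in D316Y and 35130 to 39348 CPM in WT macrophages. Single macrophage markers went both ways with LPS, with 5 called higher and 1 called lower in each genotype. Measured markers of other cells were 5 of 9 for neutrophils, 4 of 6 for monocytes and progenitors, 4 of 7 for dendritic cells, 2 of 5 for stroma, 0 of 6 for lymphocytes and 0 of 5 for erythroid cells. The summed neutrophil markers were at 42.1 to 51.7 CPM in D316Y and 30.2 to 55.2 CPM in WT macrophages with LPS, against 13.7 to 30.0 CPM in D316Y and 7.01 to 18.5 CPM in WT macrophages without it. Single neutrophil markers went both ways with LPS: S100a8 and Camp rose and Ngp fell in both genotypes, while S100a9 did not pass in either. The summed monocyte and progenitor markers were at 174.2 to 232 CPM in D316Y and 181.4 to 239 CPM in WT macrophages with LPS, against 78.5 to 90.8 CPM in D316Y and 69.6 to 74.2 CPM in WT macrophages without it. In that list Ly6c2 alone rose, by 7.58 log2 units in D316Y and by 7.25 in WT macrophages. Ccr2 fell by 1.72 in D316Y and fell by 1.71 in WT macrophages, Cd34 fell in both genotypes and Kit fell in WT macrophages. Of 4 dendritic cell markers tested, 2 were called higher and 2 lower with LPS in D316Y, and 1 higher and 2 lower in WT macrophages. The 1 stromal marker tested rose by 5.11 in D316Y and by 4.96 in WT macrophages. The part of such cells in the LPS results was not tested. Both unstimulated replicate 1 libraries stood apart from their groups in the share of reads from mitochondrially encoded genes. That share was 0.949% in D316Y replicate 1, against 2.97 and 2.21% in the other two, and 0.449% in WT replicate 1, against 2.15 and 1.97%. Results that rest on these libraries are given with and without them.

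A motif set part of the cytosolic genes apart from the mitochondrial ones in sequence. The letters TGATGNAA form the C/EBP-ATF composite element through which ATF4 is known to act. They were searched on both strands in the 300 bases from 250 before to 50 after each gene's start, taken from RefSeq for the assembly GRCm38.p6. The table of promoters held 27 of the 37 members. The motif was in 5 of 13 cytosolic promoters (38.5%), in 0 of 14 mitochondrial promoters and in 206 of 8855 promoters of measured genes (2.33%). A match is a description of these letters and not of binding. The windows below show the match in Gars, Iars, Tars and Yars, on the strand of the gene, with the matched letters in capitals and 10 bases on either side.
Gars, chr6:55037961-55037988, plus strand: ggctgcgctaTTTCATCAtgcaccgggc
Iars, chr13:49682127-49682154, plus strand: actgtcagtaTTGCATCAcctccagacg
Tars, chr15:11399656-11399683, minus strand: aggagtcccgTTGCATCAgctggttagc
Yars, chr4:129189896-129189923, plus strand: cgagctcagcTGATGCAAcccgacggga

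The matches in Gars, Iars and Tars read on the opposite strand of the gene, and that in Yars on the gene's own strand. Of the other letters searched on both strands, CACGTG, the E-box letters, was in 4 of 13 cytosolic and 1 of 14 mitochondrial promoters, against 10.6% of all. CCAAT was in 7 of 13 cytosolic and 6 of 14 mitochondrial promoters, against 39.3% of all.

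Cytosolic synthetase mRNAs were the more abundant. Levels between genes are given as log2 CPM per kb of annotated exon, so that longer genes are not counted as higher. In unstimulated WT macrophages the median cytosolic level was 3.51 log2 CPM per kb and the range 1.34 to 5.45. Without Lars2, the 16 other mitochondrial members had a median level of 0.21 and a range of -1.64 to 2.51. Genes were paired where their symbols differed only by the closing 2, which gave 14 amino acids. Phenylalanine (Farsa and Farsb against Fars2), glutamate and proline (Eprs against Ears2 and Pars2) were not paired. In 13 of the 14 paired amino acids, the cytosolic gene had the higher level per kb in every group. The median gap over the 14 pairs was 2.47 log2 units in D316Y macrophages with LPS, 2.52 in WT macrophages with LPS, 2.66 in unstimulated D316Y macrophages and 2.66 in unstimulated WT macrophages. Asparagine had the largest gap: Nars exceeded Nars2 by 6.48 ± 0.08 in D316Y and by 7.0 ± 0.39 in WT macrophages with LPS (SD, n = 3 each).

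The exception was leucine. Lars2, the mitochondrial leucyl-tRNA synthetase (GRCm38 chr9:123366927-123462666, plus strand), lay above the cytosolic Lars in all 4 groups. The gap, Lars minus Lars2, was -4.75 ± 0.03 log2 units per kb in D316Y and -5.08 ± 0.26 in WT macrophages with LPS, and -4.50 ± 0.08 in D316Y and -4.68 ± 0.08 in WT macrophages without it (SD, n = 3 each). Its level was between 10.02 and 10.77 log2 CPM in every library, and its mean placed it at rank 63 of all 12441 genes by mean log2 CPM and at rank 449 per kb. Between 88.2 and 93.3% of all reads on mitochondrial synthetases came from Lars2. Of the 11160 words of 31 bases in its annotated transcripts, 103 occurred in transcripts of another gene. Whether reads from unannotated sequence fell on it was not tested. A sum of reads over the mitochondrial synthetases is therefore mostly a measure of Lars2, and the set is described below gene by gene.

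**Figure D1:**
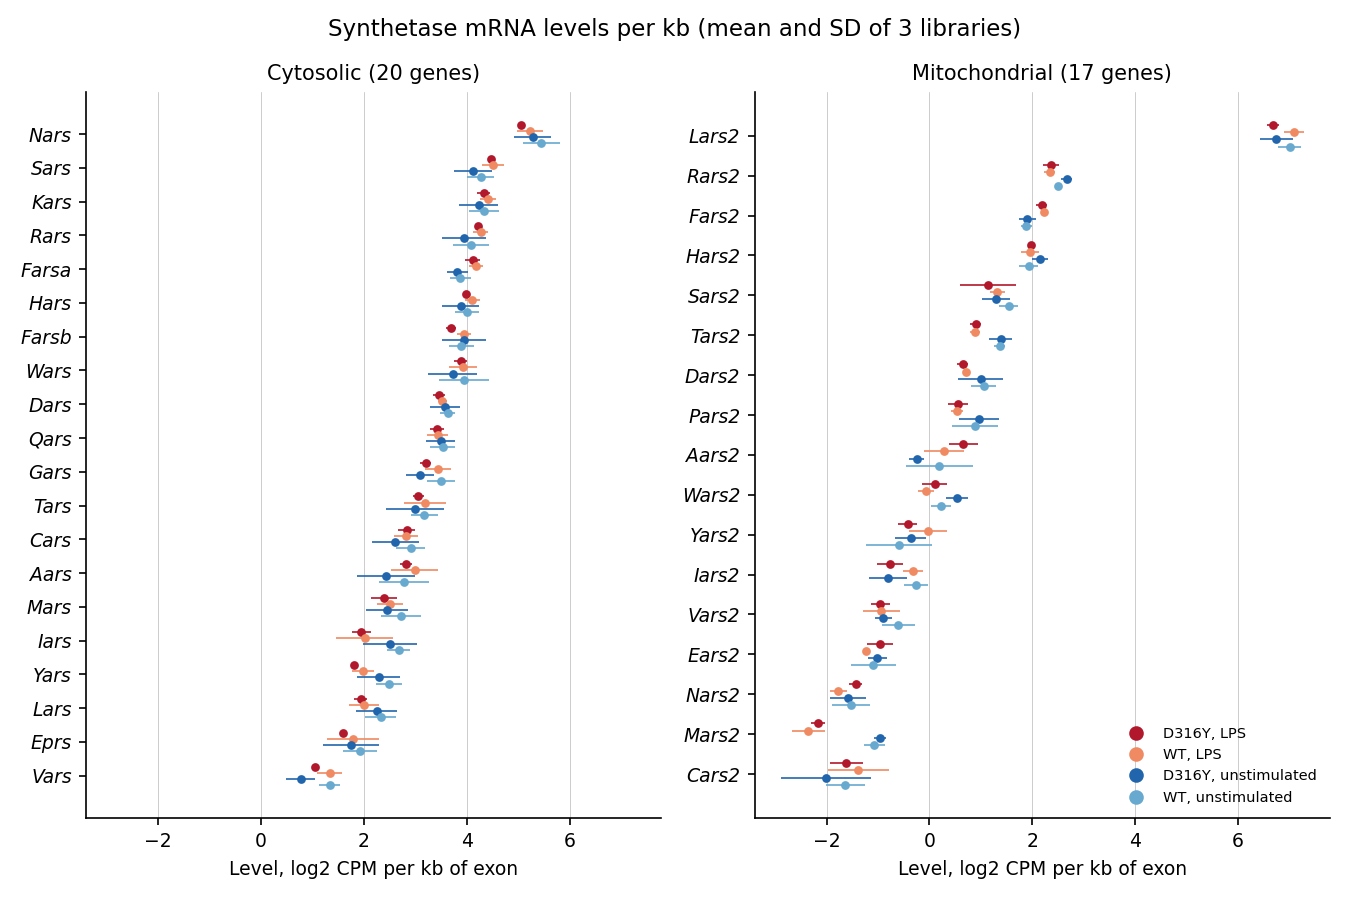
Level of each synthetase mRNA in log2 CPM per kb of exon (horizontal axis), with cytosolic genes in the left panel and mitochondrial genes in the right panel; points are means and bars SDs of 3 libraries, coloured by group. Cytosolic levels lie between 0.77 and 5.45 over the 4 groups, while Lars2 stands alone at the top of the mitochondrial panel with levels between 6.68 and 7.08.

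Per kb, Nars was the highest cytosolic member and Vars the lowest in every group. Nars, asparaginyl-tRNA synthetase, had a mean level of 5.05 ± 0.04 log2 CPM per kb in D316Y and 5.23 ± 0.25 in WT macrophages with LPS, and of 5.28 ± 0.36 in D316Y and 5.45 ± 0.37 in WT macrophages without it (SD, n = 3 each). In unstimulated WT macrophages the next 3, Kars at 4.33 ± 0.29, Sars at 4.27 ± 0.27 and Rars at 4.09 ± 0.35, did not differ beyond their spread (SD, n = 3 each). Behind Lars2, the highest mitochondrial members in unstimulated WT macrophages were Rars2, Hars2 and Fars2, at ranks 18, 21 and 23 of 37. The lowest 4 in every group were Cars2, Nars2, Ears2 and Mars2, and Mars2 was at rank 37 in both LPS groups and at rank 34 in both unstimulated groups.

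Few synthetases passed the test for a response to LPS, while many other genes did. In D316Y macrophages 3 of 37 members passed the test for a difference between LPS and no treatment (adjusted p under 0.05 over all genes), against 38.4% of all genes tested. These were 1 higher and 2 lower, against 19.4% and 19.0% of genes. In WT macrophages 3 of 37 passed as well, against 37.1% of genes, again 1 higher and 2 lower, against 18.1% and 19.0%. All members that passed were mitochondrial: Mars2 and Tars2 fell in both genotypes, Aars2 rose in D316Y and Fars2 rose in WT macrophages. Of the 20 cytosolic members 0 passed with limma in either genotype, while before adjustment p lay under 0.05 for 1 in D316Y macrophages, where it did for 46.5% of genes, and for 2 in WT macrophages, where it did for 45.7%. The counts turned on single libraries: without unstimulated D316Y replicate 1 they were 6 in D316Y and 5 in WT macrophages, and without WT LPS replicate 2 the WT count was 1. Of all genes, 4255 of 11890 in D316Y and 4615 of 11663 in WT macrophages passed without unstimulated D316Y replicate 1. Without WT LPS replicate 2, 3557 of 11661 genes passed in WT macrophages. The median size of the LPS difference, whatever its sign, was 0.23 log2 units for cytosolic and 0.28 for mitochondrial members in D316Y macrophages, against 0.42 for all genes tested. In WT macrophages it was 0.12 for cytosolic and 0.26 for mitochondrial members, against 0.41. Fewer cells of a type and less RNA per cell cannot be told apart in such bulk samples.

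Mars2, the mitochondrial methionyl-tRNA synthetase, had the largest change (GRCm38 chr1:55237177-55248470, plus strand). Its level was 1.18, 1.38 and 1.44 log2 CPM in D316Y macrophages with LPS, against 2.67, 2.5 and 2.44 without it. In WT macrophages it was 0.79, 1.39 and 1.26 log2 CPM with LPS, against 2.60, 2.20 and 2.47 without it. Every LPS library lay below every unstimulated library. The difference was -1.20 ± 0.20 in D316Y (SE, limma adjusted p = 0.000356, 2.30-fold lower with LPS) and -1.28 ± 0.20 in WT macrophages (adjusted p = 0.000238, 2.43-fold lower). It passed whichever single library was left out, with an adjusted p of at most 0.00258 in D316Y and 0.00166 in WT macrophages.

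Tars2, the mitochondrial threonyl-tRNA synthetase (GRCm38 chr3:95739976-95760206, minus strand), fell less. It had 3.63, 3.81 and 3.64 log2 CPM in D316Y macrophages with LPS, against 4.40, 4.19 and 3.96 without it. In WT macrophages it had 3.75, 3.56 and 3.71 log2 CPM with LPS, against 4.25, 4.04 and 4.18 without it. The treated and untreated libraries did not overlap within either genotype. The difference was -0.49 ± 0.14 in D316Y (SE, limma adjusted p = 0.0141) and -0.48 ± 0.14 in WT macrophages (adjusted p = 0.0159). Leaving out unstimulated D316Y replicate 1 gave -0.38 in D316Y macrophages (adjusted p = 0.0566), leaving out D316Y LPS replicate 1 gave -0.46 (adjusted p = 0.0542), and leaving out WT LPS replicate 2 gave -0.43 in WT macrophages (adjusted p = 0.0565).

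Aars2, the mitochondrial alanyl-tRNA synthetase (GRCm38 chr17:45506841-45520843, plus strand), had 2.62, 3.18 and 2.93 log2 CPM in D316Y macrophages with LPS, against 2.04, 2.13 and 1.85 without it. In WT macrophages it had 2.5, 2.16 and 2.93 log2 CPM with LPS, against 3.06, 1.77 and 2.51 without it. The groups were separate in D316Y and overlapped in WT macrophages. Aars2 rose by 0.91 ± 0.29 in D316Y macrophages (SE, limma adjusted p = 0.0251, 1.87-fold), while the difference in WT macrophages was 0.09 (limma adjusted p = 0.838). The D316Y call ended without unstimulated D316Y replicate 3 (adjusted p = 0.0735), without D316Y LPS replicate 2 (adjusted p = 0.102) and without D316Y LPS replicate 3 (adjusted p = 0.0629). The test of the difference between the genotypes is given with the interaction.

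Fars2, the mitochondrial phenylalanyl-tRNA synthetase (GRCm38 chr13:36117412-36726280, plus strand), had 4.76, 4.77 and 4.58 log2 CPM in D316Y macrophages with LPS, against 4.61, 4.35 and 4.30 without it. In WT macrophages it had 4.81, 4.71 and 4.74 log2 CPM with LPS, against 4.53, 4.37 and 4.32 without it. The WT groups did not overlap, and the D316Y groups did. It rose by 0.34 ± 0.13 in WT macrophages (SE, limma adjusted p = 0.0481), and the D316Y difference was 0.28 with an adjusted p of 0.0943. The WT call lay close to the threshold and ended when any 1 of 10 libraries was left out, with adjusted p of up to 0.145. Fars2 overlaps Lyrm4 on the opposite strand by 115 bases, and whether the authors' counting used strand is not given in the sources used here.

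**Figure D2:**
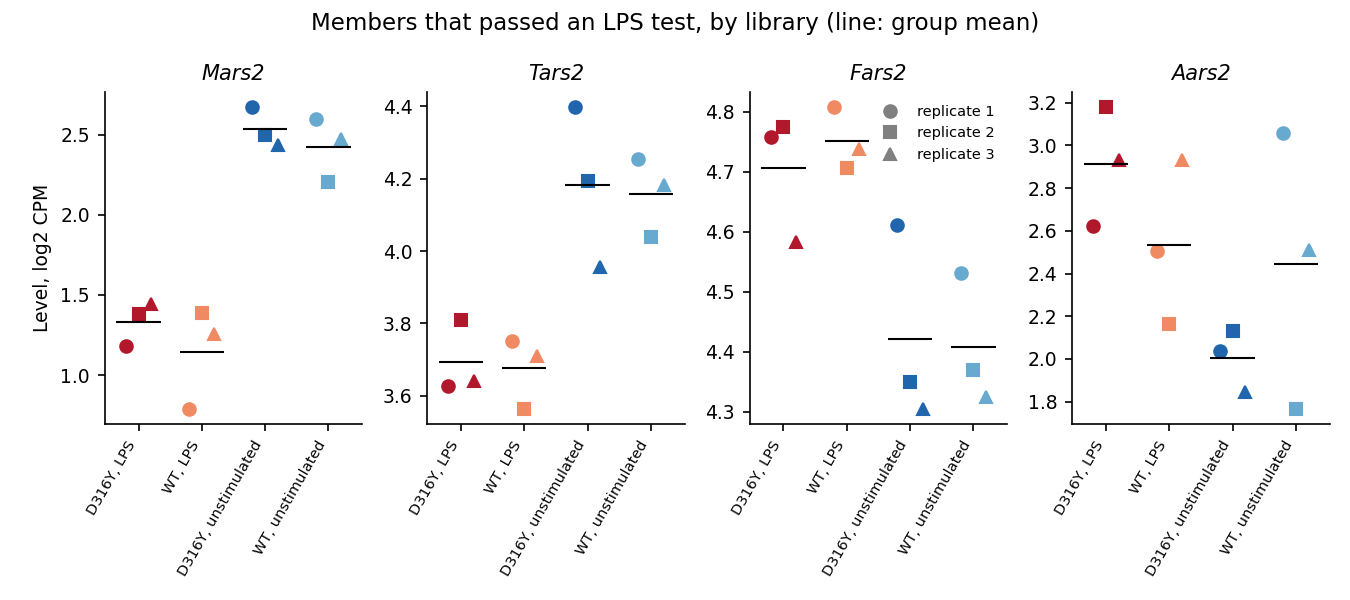
Level in log2 CPM (vertical axis, a scale for each gene) of the 4 members that passed an LPS test, in each of the 12 libraries; symbols mark the replicate number and lines the group means. The 6 LPS libraries of Mars2 lie between 0.79 and 1.44 and the 6 unstimulated ones between 2.20 and 2.67, while the WT groups of Aars2 overlap.

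The mitochondrial differences lay on both sides of 0. Its median LPS difference was -0.07 in D316Y macrophages, with 6 of 17 members above 0, and -0.17 in WT macrophages, again with 6 of 17 above 0. Wars2 had a difference of -0.43 in D316Y (adjusted p = 0.0772) and Rars2 one of -0.30 (adjusted p = 0.0871), neither of which passed with all libraries. Of the 17 mitochondrial members, 1 had LPS libraries wholly above the unstimulated ones and 4 wholly below, in each genotype. Of all 37 members, 2 lay wholly higher and 5 lower in D316Y macrophages, against 26.7% and 26.1% of all genes. In WT macrophages 1 of the 37 lay wholly higher and 6 lower, against 22.9% and 23.9%.

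Among the cytosolic enzymes, the median LPS difference was 0.08 in D316Y macrophages, with 11 of 20 above 0, and -0.04 in WT macrophages, with 8 of 20 above 0. Yars and Iars, both holders of the TGATGNAA motif, had the most negative values. Yars, tyrosyl-tRNA synthetase, had 4.33, 4.36 and 4.45 log2 CPM in D316Y macrophages with LPS, against 5.34, 4.67 and 4.56 without it. In WT macrophages Yars had 4.63, 4.30 and 4.72 log2 CPM with LPS, against 5.34, 4.88 and 4.94 without it. Its libraries did not overlap between treatments in either genotype, with a difference of -0.48 in D316Y (adjusted p = 0.0764) and -0.50 in WT macrophages (adjusted p = 0.0658). With quantile normalization Yars passed in both (adjusted p = 0.0381 in D316Y and 0.0368 in WT macrophages), as it did in D316Y macrophages without unstimulated D316Y replicate 3 (adjusted p = 0.0373) and in WT macrophages without unstimulated D316Y replicate 1 (adjusted p = 0.0185). Iars, isoleucyl-tRNA synthetase, had a difference of -0.55 in D316Y and -0.65 in WT macrophages (adjusted p = 0.0836 in WT). Without both unstimulated replicate 1 libraries the values were -0.24 in D316Y and -0.36 in WT macrophages for Yars and -0.25 in D316Y and -0.53 in WT macrophages for Iars, and none passed. The WT value of Iars passed without unstimulated D316Y replicate 1 (adjusted p = 0.0381) and without WT LPS replicate 1 (adjusted p = 0.0309). Of the 31-base words of Iars, 14.7% occur in transcripts of other genes.

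The motif holders lay on both sides of 0. Over the 5 holders the median LPS difference was 0.06 in D316Y macrophages, with 3 above 0, and -0.05 in WT macrophages, with 2 above 0. Aars, alanyl-tRNA synthetase, was the highest of all 20 in D316Y macrophages at 0.39 and did not pass. Aars overlaps Exosc6 on the same strand by 1326 bases, and 14.4% of its 31-base words occur in transcripts of other genes. The 8 cytosolic members of the multisynthetase complex (Eprs, Iars, Lars, Mars, Qars, Rars, Kars and Dars) had a median of -0.10 in D316Y and -0.12 in WT macrophages, with 2 of 8 above 0 in each. The 12 cytosolic members outside it had a median of 0.14 with 9 above 0 in D316Y and of 0.0009 with 6 above 0 in WT macrophages. Synthetases fall into a pair of structural classes, and Eprs joins one of each. The 9 other class I cytosolic members had 4 above 0 in D316Y and 1 above 0 in WT macrophages, and the 10 class II members had 7 above 0 in each.

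Wars, tryptophanyl-tRNA synthetase, had 5.68, 5.79 and 5.54 log2 CPM in D316Y macrophages with LPS, against 6.03, 5.11 and 5.39 without it. In WT macrophages Wars had 5.92, 5.40 and 5.81 log2 CPM with LPS, against 6.28, 5.39 and 5.52 without it. The groups overlapped in both genotypes. Its difference was 0.16 in D316Y macrophages, with 95% limits of -0.39 and 0.71, and -0.02 in WT macrophages, with limits of -0.57 and 0.53. In the same libraries 10 of 10 interferon-induced genes rose with LPS in D316Y and 9 of 10 in WT macrophages. The antiviral ubiquitin-like gene Isg15 rose by 2.99 in D316Y and by 2.26 in WT macrophages (adjusted p = 4.44e-06 and 5.95e-05), and the guanylate-binding protein gene Gbp2 rose by 2.55 in D316Y and by 1.88 in WT macrophages.

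Kars, lysyl-tRNA synthetase and a member of the complex, had 6.56, 6.55 and 6.35 log2 CPM in D316Y macrophages with LPS, against 6.82, 6.20 and 6.14 without it. In WT macrophages Kars had 6.74, 6.43 and 6.56 log2 CPM with LPS, against 6.81, 6.26 and 6.40 without it. The groups overlapped, and the differences were 0.09 in both genotypes.

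Gars, glycyl-tRNA synthetase, had 4.79, 4.76 and 4.96 log2 CPM in D316Y macrophages with LPS, against 5.02, 4.48 and 4.67 without it. In WT macrophages Gars had 5.28, 4.81 and 5.17 log2 CPM with LPS, against 5.44, 4.93 and 5.04 without it. Its differences were 0.11 in D316Y and -0.05 in WT macrophages, and the groups overlapped.

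Eprs, the fused glutamyl-prolyl-tRNA synthetase, had 5.76, 5.75 and 5.83 log2 CPM in D316Y macrophages with LPS, against 6.56, 5.63 and 5.60 without it. In WT macrophages Eprs had 6.46, 5.46 and 5.98 log2 CPM with LPS, against 6.48, 5.92 and 5.91 without it. Its differences were -0.15 in D316Y and -0.13 in WT macrophages, again with overlap.

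Mars, the cytosolic methionyl-tRNA synthetase and counterpart of Mars2, had 3.92, 4.18 and 4.41 log2 CPM in D316Y macrophages with LPS, against 4.70, 4.00 and 3.96 without it. In WT macrophages Mars had 4.58, 4.11 and 4.18 log2 CPM with LPS, against 4.92, 4.14 and 4.41 without it. Its differences of -0.05 in D316Y and -0.20 in WT macrophages did not pass, and its groups overlapped where those of Mars2 were apart. Mars overlaps Ddit3 by 68 bases on the opposite strand.

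**Figure D3:**
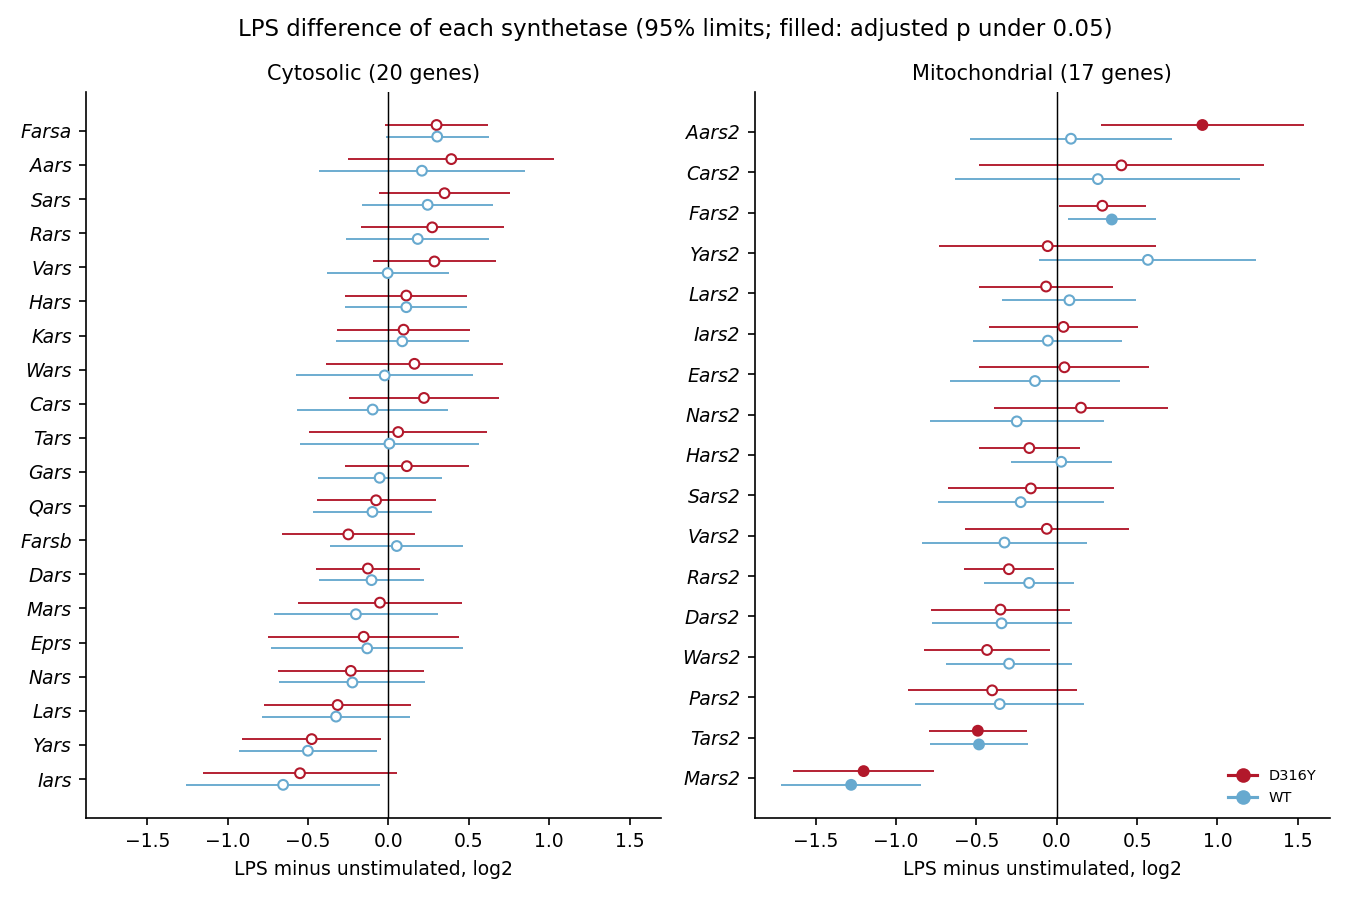
LPS minus unstimulated difference of each synthetase in log2 units (horizontal axis) with 95% limits, D316Y above WT for each gene, cytosolic genes left and mitochondrial genes right; filled points passed an adjusted p of 0.05. Mars2 at -1.20 in D316Y and -1.28 in WT macrophages lies farthest from 0, and no cytosolic point is filled.

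The cytosolic values with LPS depended on the unstimulated replicate 1 libraries. In unstimulated D316Y macrophages 19 of 20 cytosolic members were highest in replicate 1, and in unstimulated WT macrophages 20 of 20 were, against 44.6 and 48.7% of all genes at 0 log2 CPM or more. The mean cytosolic level was 5.89, 5.22 and 5.23 log2 CPM in the unstimulated D316Y libraries and 5.94, 5.40 and 5.55 in the unstimulated WT libraries. Replicate 1 exceeded the mean of the other two by a median of 0.70 over the cytosolic members in D316Y and 0.44 in WT macrophages, against 0.04 and 0.08 over all genes. Of the mitochondrial members 6 of 17 were highest in replicate 1 in D316Y and 11 of 17 in WT macrophages.

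With LPS the pattern was there in WT and not in D316Y macrophages. Of the 20 cytosolic members, 2 were highest in D316Y LPS replicate 1 and 16 in WT LPS replicate 1, against 28.8 and 40.8% of all genes. The mean cytosolic level was 5.40, 5.48 and 5.48 log2 CPM in D316Y and 5.77, 5.31 and 5.62 in WT macrophages with LPS. In unstimulated macrophages the excess of replicate 1 had a median of 0.90 in the 5 motif holders and 0.64 in the 8 cytosolic genes with a listed promoter and no motif in D316Y, and of 0.44 and 0.41 in WT. The mitochondrially encoded read share given above was low in the same unstimulated libraries, and the share of reads from 77 ribosomal protein genes was low as well, at 4.78% in D316Y replicate 1 against 8.57 and 7.99%, and at 3.25% in WT replicate 1 against 6.92 and 6.73%. What part these shares have in the cytosolic values was not tested.

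**Figure D4:**
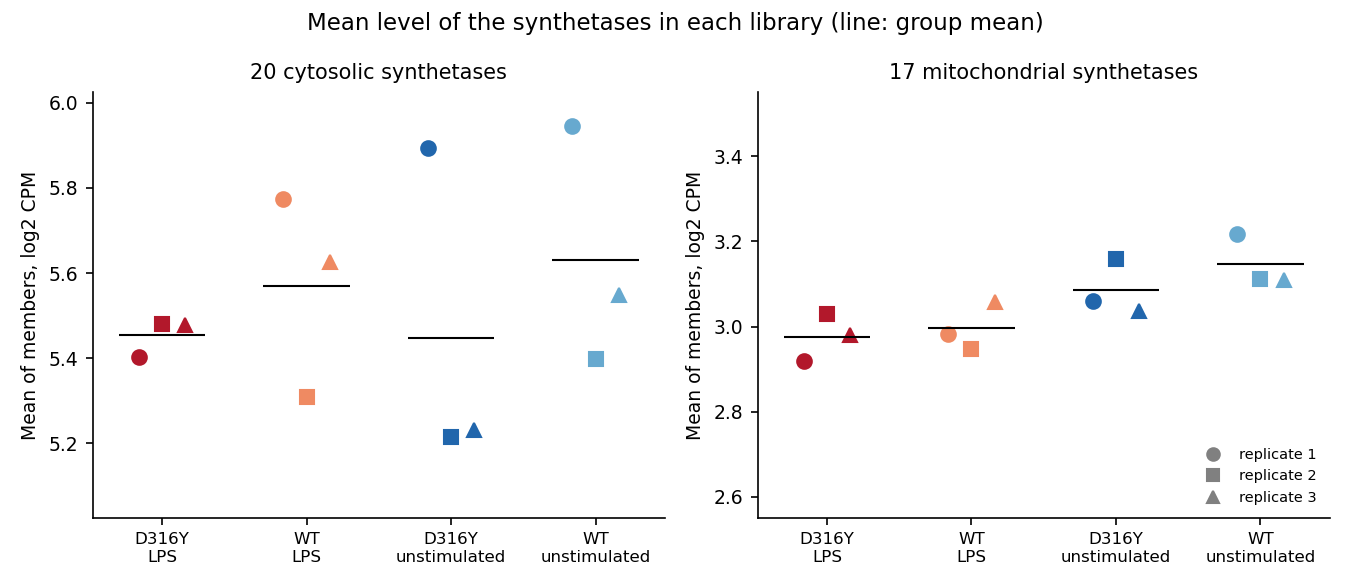
Mean log2 CPM over the 20 cytosolic (left) and 17 mitochondrial (right) synthetases in each library, by group, with symbols for replicate numbers and lines for group means. The cytosolic means of unstimulated replicate 1 are 5.89 in D316Y and 5.94 in WT macrophages, above all other unstimulated libraries, while the mitochondrial means stay between 2.92 and 3.22.

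Without both unstimulated replicate 1 libraries, cytosolic members passed in the LPS comparisons, all of them higher with LPS. The left-out libraries held the highest unstimulated value of 19 of 20 cytosolic members in D316Y and of 20 of 20 in WT macrophages. Leaving them out raises the LPS differences of those members by construction, so the direction of these calls was not free of that choice. WT LPS replicate 1, the highest of its group for 16 of 20, was kept. In D316Y macrophages 11 members passed in all (background then 5217 of 11890 genes), and 6 of them were cytosolic: Aars at 0.72, Sars at 0.56, Rars at 0.52, Cars at 0.48, Wars at 0.42 and Farsa at 0.41. Wars then had an adjusted p of 0.0427. In WT macrophages 6 members passed (4922 of 11752 genes), and 3 of them were cytosolic: Farsa at 0.39, Sars at 0.39 and Rars at 0.37. Of the 20 cytosolic members 15 were then above 0 in each genotype. The 5 mitochondrial members that passed in D316Y macrophages without these libraries were Mars2 at -1.13, Tars2 at -0.38, Aars2 at 0.92, Fars2 at 0.38 (adjusted p = 0.0221) and Wars2 at -0.52 (adjusted p = 0.0496), of which Fars2 and Wars2 had not passed with all libraries. Mars2, Tars2 and Fars2 passed in WT macrophages, at -1.19, -0.44 and 0.40.

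The scale of the values bears on the LPS directions. The authors' values divide reads by an effective library size, which was below the table's reads in all 6 LPS libraries and above them in all 6 unstimulated ones. As a plain share of reads, the cytosolic synthetases took 0.0958 ± 0.0030% in D316Y macrophages with LPS, against 0.137 ± 0.034% without it, and 0.102 ± 0.021% in WT macrophages with LPS, against 0.146 ± 0.025% without it (SD, n = 3 each). Dividing by the plain total moved the median LPS difference of all genes to -0.55 in D316Y and -0.53 in WT macrophages. On that scale all 20 cytosolic members were lower with LPS, with medians of -0.44 in D316Y and -0.55 in WT macrophages, the first above that shift and the second just below it. Fars2 turned to -0.23 in D316Y and -0.17 in WT macrophages, above the shift, and Aars2 in D316Y macrophages to 0.39 without passing (adjusted p = 0.258). Mars2 at -1.72 in D316Y and -1.79 in WT macrophages and Tars2 at -1.01 in D316Y and -0.99 in WT macrophages lay below the shift and passed.

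No synthetase passed the test between D316Y and WT macrophages. Without LPS 0 of 37 members passed, against 0.00868% of genes, and 2 members had an unadjusted p under 0.05, against 2.92% of genes. With LPS 0 of 37 passed, against 0.0442%, and 2 had an unadjusted p under 0.05, against 6.5%. The authors' deposited table gave 0 members with an adjusted p under 0.05 as well, with a smallest adjusted p of 0.148 without LPS and 0.267 with it. Over all genes the authors' fit gave 7 at that level without LPS and 10 with it. Before adjustment the authors' fit had p under 0.05 for 8 members without LPS and for 6 with it. The share of all genes at that level in the authors' fit was not counted, so the 8 and 6 have no background. The 2.92% and 6.5% come from the fit run here and are not that background. Without LPS the smallest unadjusted p of the authors' fit belonged to Cars (0.00262, lower) and Wars2 (0.00462, higher), while Iars2 had 0.211.

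Nearly all cytosolic members had a slightly lower mean in D316Y macrophages. Without LPS 19 of 20 cytosolic differences were below 0, with a median of -0.17, against a median of -0.02 over all genes. With LPS 19 of 20 were below 0, with a median of -0.10, against -0.0033. The mitochondrial members were divided, with 8 of 17 below 0 in each condition and medians of 0.01 and 0.02. These counts are descriptions, since the genes share libraries. Macrophage markers lay below 0 as well, 8 of 8 without LPS with a median of -0.22 and 7 of 8 with LPS with a median of -0.20. Of the neutrophil markers tested, 4 of 4 lay above 0 without LPS with a median of 0.76 and 3 of 3 with LPS with a median of 0.09. Interferon-induced genes had 9 of 9 below 0 without LPS, with a median of -0.77, and 3 of 10 with LPS, with a median of 0.05. A list of ATF4 targets and an upstream kinase had 12 of 14 below 0 without LPS, with a median of -0.19, and 6 of 14 with LPS, with a median of 0.03. Cytosolic elongation factors had 3 of 6 below 0 without LPS and 6 of 6 with it. No gene of these lists passed, and the part of these lists in the cytosolic values was not tested. Leaving out unstimulated WT replicate 1 gave a cytosolic median of 0.01 without LPS, and leaving out WT LPS replicate 1 gave 0.01 with LPS. Quantile normalization left 16 of 20 below 0 without LPS and 18 of 20 with LPS, and the plain total left 17 of 20 in each.

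Compared within replicate numbers, the mean cytosolic difference, D316Y minus WT, was -0.05, -0.18 and -0.32 without LPS, all of 1 sign. In replicate 1 without LPS, 9 of the 20 members were higher in D316Y. With LPS the mean difference was -0.37, 0.17 and -0.15, of both signs, and 15 of 20 members were higher in D316Y in replicate 2. In the comparison without LPS, leaving out both replicate 1 libraries put all 20 cytosolic members lower in D316Y, with a median of -0.21, and 0 passed. With the replicate number as a block 0 passed, and 7 members had an unadjusted p under 0.05 without LPS, where 2119 of 11525 genes did.

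In the fit run here, the members nearest the threshold without LPS were Vars, Iars2 and Gars. Vars, valyl-tRNA synthetase, had 3.38, 2.93 and 3.46 log2 CPM in D316Y, against 4.03, 3.82 and 3.62 in WT macrophages, so that the groups did not overlap. Its difference was -0.57 ± 0.19 (SE, unadjusted p = 0.018, limma adjusted p = 0.942). With LPS Vars had 3.51, 3.58 and 3.54 log2 CPM in D316Y, against 3.77, 3.60 and 4.08 in WT macrophages, again without overlap, with a difference of -0.28 (adjusted p = 0.817).

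Iars2, the mitochondrial isoleucyl-tRNA synthetase, had 1.98, 2.72 and 2.34 log2 CPM in unstimulated D316Y, against 2.96, 3.07 and 2.63 in unstimulated WT macrophages. With LPS it had 2.10, 2.55 and 2.51 log2 CPM in D316Y, against 2.92, 2.61 and 2.96 in WT macrophages. The groups overlapped without LPS and did not with LPS. The difference was -0.54 without LPS (unadjusted p = 0.0467) and -0.44 with it (unadjusted p = 0.0414). Iars2 overlaps Rab3gap2 on the opposite strand by 2034 bases, and 23.6% of its 31-base words occur in transcripts of other genes, so its reads are less certain than those of most members.

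Gars had a difference of -0.41 without LPS (unadjusted p = 0.0698) and of -0.24 with it. Of the other members of interest, Wars had differences of -0.22 without LPS and -0.04 with it, Kars of -0.10 and -0.09, Eprs of -0.17 and -0.19, and Mars of -0.27 and -0.12. Their D316Y and WT libraries overlapped in each condition, as the values given for LPS show.

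With LPS the members nearest the threshold in the fit run here were Lars2, Iars2 and Farsb. Lars2 had 10.03, 10.18 and 10.24 log2 CPM in D316Y, against 10.77, 10.47 and 10.42 in WT macrophages, without overlap. Its difference was -0.40 ± 0.14 (SE, unadjusted p = 0.0121, limma adjusted p = 0.592). Farsb, the beta subunit of cytosolic phenylalanyl-tRNA synthetase, had 4.98, 5.10 and 5.17 log2 CPM in D316Y, against 5.49, 5.21 and 5.32 in WT macrophages, without overlap, with a difference of -0.25 (unadjusted p = 0.0688). Members whose genotypes did not overlap numbered 1 higher (Nars2) and 4 lower (Farsb, Iars2, Lars2 and Vars) in D316Y with LPS, against 5.7% and 6.79% of genes, and 1 higher (Rars2) and 1 lower (Vars) without it, against 2.95% and 5.18%.

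**Figure D5:**
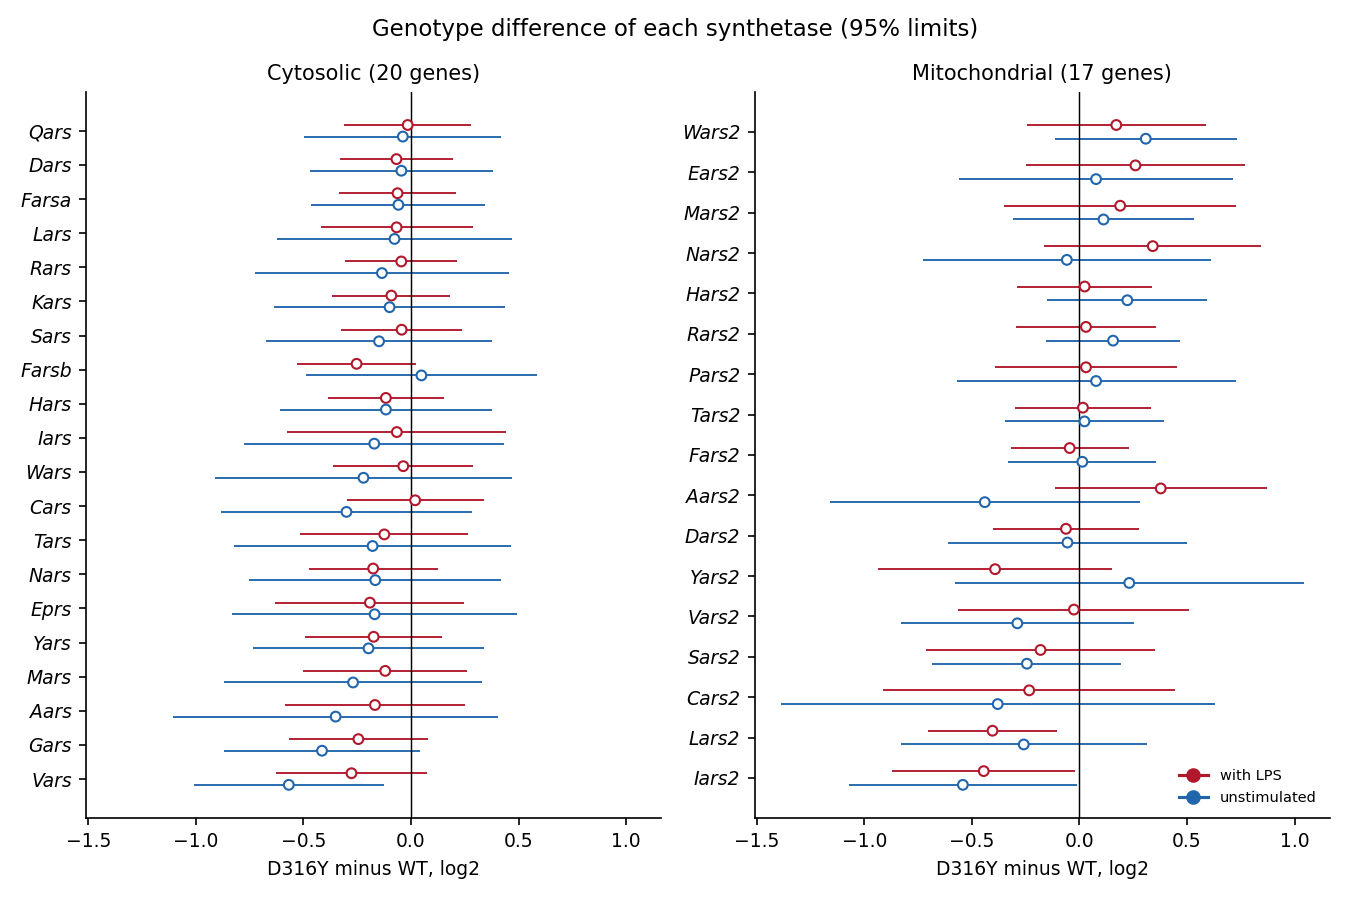
D316Y minus WT difference of each synthetase in log2 units (horizontal axis) with 95% limits, values with LPS above unstimulated values, cytosolic genes left and mitochondrial genes right. In each condition 19 of 20 cytosolic points lie left of 0 and 8 of 17 mitochondrial points do; no point passed an adjusted p of 0.05.

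No member passed the test for a different LPS response in D316Y and WT macrophages. In the interaction, the LPS difference in D316Y minus that in WT macrophages, limma called 0 of 37 members, against 0.0% of 11918 genes, and 0 members had an unadjusted p under 0.05, against 2.11% of genes. Aars2 came closest at 0.82 ± 0.41 (SE, 95% limits -0.07 and 1.71, unadjusted p = 0.0688, adjusted p = 0.999), and without both unstimulated replicate 1 libraries it was at 0.53. The next were Yars2, mitochondrial tyrosyl-tRNA synthetase, at -0.62, which was -0.41 without those libraries, and Vars at 0.29. Yars2 had 1.44, 1.09 and 1.17 log2 CPM in D316Y macrophages with LPS, against 1.03, 1.62 and 1.22 without it, and 1.58, 2.01 and 1.29 log2 CPM in WT macrophages with LPS, against 0.38, 1.64 and 1.15 without it. Its groups overlapped in both genotypes. The median was 0.04 over the cytosolic and -0.01 over the mitochondrial members, against 0.01 over all genes. For Wars the interaction was 0.19 with 95% limits of -0.59 and 0.96, for Gars 0.17, for Mars 0.15, for Kars 0.01 and for Eprs -0.02.

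Partner genes of the synthetases were set against the same background, 38.4% of genes passing with LPS in D316Y and 37.1% in WT macrophages. In D316Y macrophages 4 of 8 mitochondrial translation factors tested, 2 of 7 mitochondrial charging partners, 1 of 6 cytosolic elongation factors and 0 of 7 other cytosolic charging and editing genes passed. In WT macrophages 1 of 8, 0 of 7, 0 of 6 and 1 of 7 in those lists did. The 3 scaffold proteins of the multisynthetase complex, Aimp1, Aimp2 and Eef1e1, had no call in any comparison. Of 8 measured genes for other steps of cytosolic tRNA charging and editing, Prorsd1, which resembles a prolyl-tRNA editing domain, had a difference with LPS of 0.45 in D316Y macrophages and rose by 0.78 in WT macrophages (adjusted p = 0.0105), a call that ended without WT LPS replicate 2 (adjusted p = 0.0518). Of 7 partners in mitochondrial charging, Mtfmt, which formylates the methionyl-tRNA that Mars2 makes, rose with LPS by 0.49 in D316Y macrophages (adjusted p = 0.0287) and had 0.18 in WT. The Mtfmt call ended without unstimulated D316Y replicate 1 or D316Y LPS replicate 1 or 2 (adjusted p up to 0.114). The tRNA modification enzyme gene Gtpbp3 rose by 0.69 in D316Y macrophages (adjusted p = 0.0494), a call that ended when any 1 of 8 libraries was left out.

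Of 9 mitochondrial translation factors, Gfm2, a factor of ribosome recycling, fell with LPS by 0.46 in D316Y and by 0.52 in WT macrophages (adjusted p = 0.0306 and 0.0171). The Gfm2 call ended without any 1 of 5 D316Y libraries in D316Y macrophages (adjusted p up to 0.118), and without unstimulated WT replicate 2 or WT LPS replicate 2 in WT macrophages (adjusted p up to 0.074). In D316Y macrophages the elongation factor gene Tsfm and the release factor gene Mtrf1 rose, by 0.43 and 0.47, and the recycling factor gene Mrrf fell by 0.41. These calls ended when any 1 of 3 libraries was left out for Tsfm, of 8 for Mtrf1 and of 11 for Mrrf. On the plain total scale Mtfmt, Tsfm and Mtrf1 turned to slightly below 0, above the shift of all genes. Of 6 cytosolic elongation factors, Eef1d alone passed, in D316Y macrophages, where it fell by 0.35 (adjusted p = 0.0297), and this call ended without any 1 of 5 D316Y libraries.

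A list of ATF4 targets and an upstream kinase of the amino acid response changed in both directions with LPS. In D316Y macrophages 6 of the 14 measured rose and 5 fell, against 19.4% and 19.0% of all genes. In WT macrophages 4 rose and 6 fell, against 18.1% and 19.0%. The stress-induced chromatin gene Nupr1 rose by 3.89 in D316Y and by 3.57 in WT macrophages, and Ddit3, which encodes the transcription factor CHOP, rose by 1.04 in D316Y and by 0.92 in WT macrophages. Psat1, an enzyme of serine synthesis, fell by 2.33 in D316Y and fell by 2.49 in WT macrophages. Chac1 fell in both genotypes. With single libraries left out its difference ranged from -1.01 to -0.75 in D316Y and from -2.17 to -1.86 in WT macrophages. The D316Y call of Chac1 ended without 1 library (limma adjusted p = 0.0636). Mthfd2, a mitochondrial folate enzyme, rose by 1.19 in D316Y and by 0.85 in WT macrophages. No gene of these lists passed in a genotype comparison or in the interaction.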

How the data were processed

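RNA was sequenced from 12 macrophage libraries in 4 groups of 3. Per the submitters' processing notes the authors used featureCounts 1.4.6-p5 from Subread, STAR 2.5.1a, limma, edgeR and bcl2fastq. The genome build, annotation and counting strand they used were not given in the sources used here. The authors deposited 2 tables with the same log2 counts-per-million values of all libraries, per the file headers, and the deposited p-values and log2 fold changes of each genotype comparison. After 52 repeated identifiers were taken once, 12441 genes remained; no column of another sample was used.

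Each log2 value could be turned back into reads, as the log2 of the read number with 0.5 added, divided by the library's effective size: 100% of values under 200 reads lay within 0.01 of a whole read. Because the unit is log2, no count test was run. Comparisons were fitted in limma 3.58.1 (R 4.3.3, data.table version 1.17.8; eBayes with trend and robust) on genes whose mean reached 0 log2 CPM in 1 or more of the groups compared, two-sided, with Benjamini-Hochberg adjustment over all genes tested and a threshold of 0.05. Genotype comparisons used 6 libraries each; the LPS comparisons and the interaction came from 1 fit of 12. Tables were made with Python 3.11.15, pandas 2.3.3, numpy 2.4.6 and scipy 1.17.1. Exon lengths and positions came from GENCODE M21 (GRCm38), where all identifiers were found.

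On simulated data with the real means, 99% of genes changed by 1 log2 unit were recovered in the unstimulated genotype comparison (11289 genes), 98% in the genotype comparison with LPS (11283 genes), 98% in the WT (11300 genes) and 98% in the D316Y LPS comparison (11286 genes), and 79% in the interaction (11382 genes). The simulated libraries varied independently, with 1 fixed spread for all genes and no effect shared within a library. The changed genes were drawn from those above a set mean level, which several mitochondrial members did not reach. These shares hold for that setting and may be lower for the members in the real libraries. With depths of 32.8 M reads and more, the lowest member count was 47 reads. Counting error and the spread between libraries both enter the SEs and were not separated.

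Same-numbered unstimulated D316Y and WT libraries deviated together from their group means (correlations across genes 0.656, 0.631 and 0.200). Unstimulated D316Y replicate 3 deviated most like WT replicate 2. The labels give no pairing, and the reported tests were unpaired in every comparison, with the replicate number as a block run as an alternative. With that block the median SE of the cytosolic genotype differences without LPS was 0.104, against 0.236 in the reported fit. Some promoter sequence is not reported here. The members and lists were chosen with earlier results of these data known. All members were named; those printed by library were the members that passed, otherwise the 3 with the smallest unadjusted p, and Wars, Kars, Gars, Eprs and Mars in every case, with up to 4 genes of each list. Yars was added after its values were seen. Alternatives were other scalings, filters, eBayes settings, a replicate block and left-out libraries.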

Additional observations from a re-analysis of the deposited data

How the results depend on the processing

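No member passed in the genotype comparisons or the interaction in any setting run, and Mars2 passed with LPS in both genotypes in every setting run. Dividing by the plain total, chosen after seeing the data, moved the count of members called with LPS to 17 in D316Y and 22 in WT macrophages, all lower. Of all genes, 7005 of 11987 then passed in D316Y macrophages, 5953 of them lower. In WT macrophages 6880 of 11809 did, 5966 of them lower. On that scale the D316Y values turned to -0.23 for Fars2, -0.17 for Sars, -0.22 for Farsa, -0.24 for Rars, -0.12 for Aars, -0.29 for Cars, -0.35 for Wars, -0.42 for Kars, -0.40 for Gars, -0.082 for Tsfm, -0.044 for Mtrf1, -0.025 for Mtfmt and -0.064 for Prorsd1. The WT values turned to -0.17 for Fars2, -0.42 for Kars, -0.26 for Sars, -0.21 for Farsa, -0.33 for Rars, -0.42 for Aars2 and -0.32 for Mtfmt, and the genotype difference of Wars with LPS to 0.0043. By construction this scale shifts all genes alike. Quantile normalization gave 5 calls in D316Y macrophages, against 4553 of 11712 genes, with Yars and Nars (-0.56, adjusted p = 0.0330) among them. It gave 4 in WT macrophages, against 4251 of 11718 genes, with Yars among them. It turned Kars to -0.17 in D316Y and -0.13 in WT macrophages and to -0.037 in the interaction, where median-of-ratios scaling gave -0.0125.

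Without both unstimulated replicate 1 libraries 11 members passed in D316Y and 6 in WT macrophages, against 5217 of 11890 and 4922 of 11752 genes. Eprs and Mars then turned to 0.16 and 0.18 in D316Y macrophages, Wars, Gars, Eprs and Mars to 0.25, 0.096, 0.058 and 0.011 in WT macrophages, and Eprs to 0.10 in the interaction. With single libraries left out, the counts ranged from 2 to 6 in D316Y and from 1 to 5 in WT macrophages. The calls over all genes then ranged from 3628 to 4911 in D316Y and from 3557 to 4615 in WT macrophages. For LPS in D316Y macrophages the values ranged from -0.036 to 0.42 for Wars, -0.028 to 0.31 for Kars, -0.0057 to 0.26 for Gars, -0.32 to 0.16 for Eprs and -0.18 to 0.18 for Mars. For LPS in WT macrophages they ranged from -0.19 to 0.25 for Wars, -0.030 to 0.25 for Kars, -0.16 to 0.096 for Gars, -0.38 to 0.12 for Eprs, -0.38 to 0.011 for Mars and -0.25 to 0.40 for Aars2. For genotype without LPS they ranged from -0.48 to 0.056 for Wars, -0.31 to 0.062 for Kars and -0.485 to 0.0199 for Eprs. For genotype with LPS they ranged from -0.19 to 0.069 for Wars, -0.45 to 0.055 for Eprs and -0.24 to 0.026 for Mars. In the interaction they ranged from -0.092 to 0.44 for Wars, -0.15 to 0.22 for Kars, -0.064 to 0.39 for Mars and -0.28 to 0.29 for Eprs. None of these members passed in the comparison as reported. The causes of these changes were not tested.

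With the replicate number as a block, 5 members passed with LPS in WT macrophages, Yars (adjusted p = 0.0320) and Iars (adjusted p = 0.0311) among them, and 4 in D316Y macrophages, Yars (adjusted p = 0.0385) among them. The background was then 4690 of 11663 genes in WT and 4850 of 11795 in D316Y macrophages. Same-numbered libraries correlated at -0.189, -0.248 and -0.102 between D316Y treatments, at 0.422, 0.231 and -0.0922 between WT treatments and at -0.140, 0.0859 and -0.0136 between genotypes with LPS. The labels do not say what a shared replicate number marks. The block changed no call of a member in the genotype comparisons. Over all settings 1504 of the values of single genes kept their direction and side of the threshold, 86 no longer passed, 35 newly passed and 71 changed sign.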
